A study of Mus musculus with 6 samples.

Results

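The genes described here encode the limiting membrane of the lysosome and the machines that sit on it: 10 lysosomal membrane proteins, 5 subunits of the membrane sector (V0) and 8 of the cytosolic sector (V1) of the vacuolar ATPase (V-ATPase), its 2 accessory proteins, the 5 subunits of the Ragulator complex and 3 Rag GTPases. They were listed by gene symbol, with earlier results of these data known. All 33 symbols matched a row among the 45706 gene rows of the deposited count table. RNA-seq libraries came from mouse bone marrow: 2 libraries labelled control medium (replicates 1 and 2) and 4 labelled as conditioned medium, 1 each for medium of the clear cell renal cell carcinoma (ccRCC) lines VpR83, VpR99, VpR126 and VpR2020. The question is how tumour-cell medium alters marrow cells, as one arm of work on ccRCC in mice that resists checkpoint therapy. For the controls, the labels say control medium but the series' design says marrow fresh from the animal, so effects of culture and of tumour medium cannot be told apart. In the table's header, Ctrl, T1 and LT2 are attached to VpR83, VpR99 and VpR126 with no explanation in the labels. Mouse strain, age, sex and number, and the time in culture, were not stated in the labels read. Each line has 1 library, so the lines serve as the replicates of conditioned medium. The 4 different media imply separate cultures for the conditioned libraries. Nothing in the labels says that libraries came from separate animals, or that the 2 controls were prepared apart. P-values then measure only the spread between these libraries, which for the controls may be technical.

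Lysosomes degrade what a phagocyte takes up, and they need an acid lumen to do so. The V-ATPase is a rotary proton pump: the V1 sector hydrolyses ATP in the cytosol and turns a rotor that drives protons through the V0 sector in the membrane. The same membrane carries glycoproteins that line the lumen, exporters that release the products of digestion, and Ragulator, the scaffold that tethers the Rag GTPases and through them recruits the growth regulator mTORC1 when amino acids are plentiful. Macrophages and osteoclasts are known for large amounts of these components.

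VpR99 was sequenced to 129120559 counts and the other 5 libraries to between 18629708 and 28055913, so counting error is smallest in that library, and the number of libraries sets the precision of the comparison. Of 43 tested markers of dendritic, B, T and NK, erythroid, mast and basophil, stromal and endothelial, and epithelial cells, 35 were lower in conditioned medium, 8 were not called and 0 were higher by edgeR's quasi-likelihood test, and their summed level was 3865 to 6285 CPM (counts scaled to a common library total) in the controls and 91.4 to 520.3 CPM in conditioned medium. Gzma, Slc4a1 and Krt8 of these lists had 0 counts in every conditioned library, and Krt19 had 0 in all libraries. Among all genes tested, 22.5% were called higher and 19.7% lower. Of 12 neutrophil markers 8 were lower and 4 not called (82622 to 90429 CPM in the controls, 3421 to 18027 CPM in conditioned medium). Of 14 macrophage markers 11 were higher, Timd4 was lower and 2 were not called (499 to 521 against 6697 to 16479.8 CPM). None was at 0 in every library of a group, but Timd4 had 0 counts in VpR83 and VpR2020, with 3 in VpR99 and 7 in VpR126. Of 6 monocyte markers Csf1r, also on the macrophage list, was higher and 5 were not called (2065 to 2079.9 against 4541 to 6612 CPM), and of 5 markers of megakaryocytes and platelets the chemokine genes Pf4 and Ppbp were higher and 3 were not called (summed level 61.1 to 67.7 against 664 to 2339 CPM). In conditioned medium Pf4 and Ppbp made up most of that sum. The platelet receptor genes Itga2b, Gp9 and Gp1bb lay below both controls in VpR83, VpR99 and VpR2020 and above both in VpR126, as for Itga2b with 36.2 and 37.6 CPM in the controls and 2.60, 7.23, 154 and 7.63 CPM under VpR83, VpR99, VpR126 and VpR2020 medium. Of 5 tested osteoclast markers Dcstamp was higher and 4 were not called. Their summed level (1640.0 to 1849.8 against 319 to 2573 CPM) was mostly Mmp9 (1499 and 1704 CPM in the controls and 209 to 2417 CPM in conditioned medium), which neutrophils also express. Acp5 was below both controls in every conditioned library (61.3 and 63.6 against 12.6 to 51.8 CPM).

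Most genes of the lysosomal membrane and its complexes were higher in conditioned medium, but the members of a complex moved unequally. Of the 33 genes, all of which passed the filter on low counts, 23 rose, Lamtor4 of Ragulator fell, and 9 were not called (quasi-likelihood test of edgeR, p-values adjusted by Benjamini and Hochberg's method over 15141 genes, threshold 0.05). The 23 make up 69.7% of the members, where 22.5% of all genes tested were called higher and 19.7% lower (42.2% either way). By complex the share called higher was 90% for the membrane proteins, 60% for V0 and 62.5% for V1. It was 100% for the accessory proteins, 40% for Ragulator and 66.7% for the Rag GTPases. These lists hold 2 to 10 genes each, so their shares are coarse. All 4 conditioned libraries lay above both controls for 25 members (75.8%), against 32.0% of all genes tested, and below both for 2, against 33.3%. The median log2 fold change was 0.92 over the members and -0.01 over all genes tested. Summed over the members, the level was 4171 and 4081 CPM in the controls and 10985, 9251, 11679 and 13392 CPM under VpR83, VpR99, VpR126 and VpR2020 medium. CPM values here are scaled between libraries by the trimmed mean of M values (TMM).

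**Figure D1:**
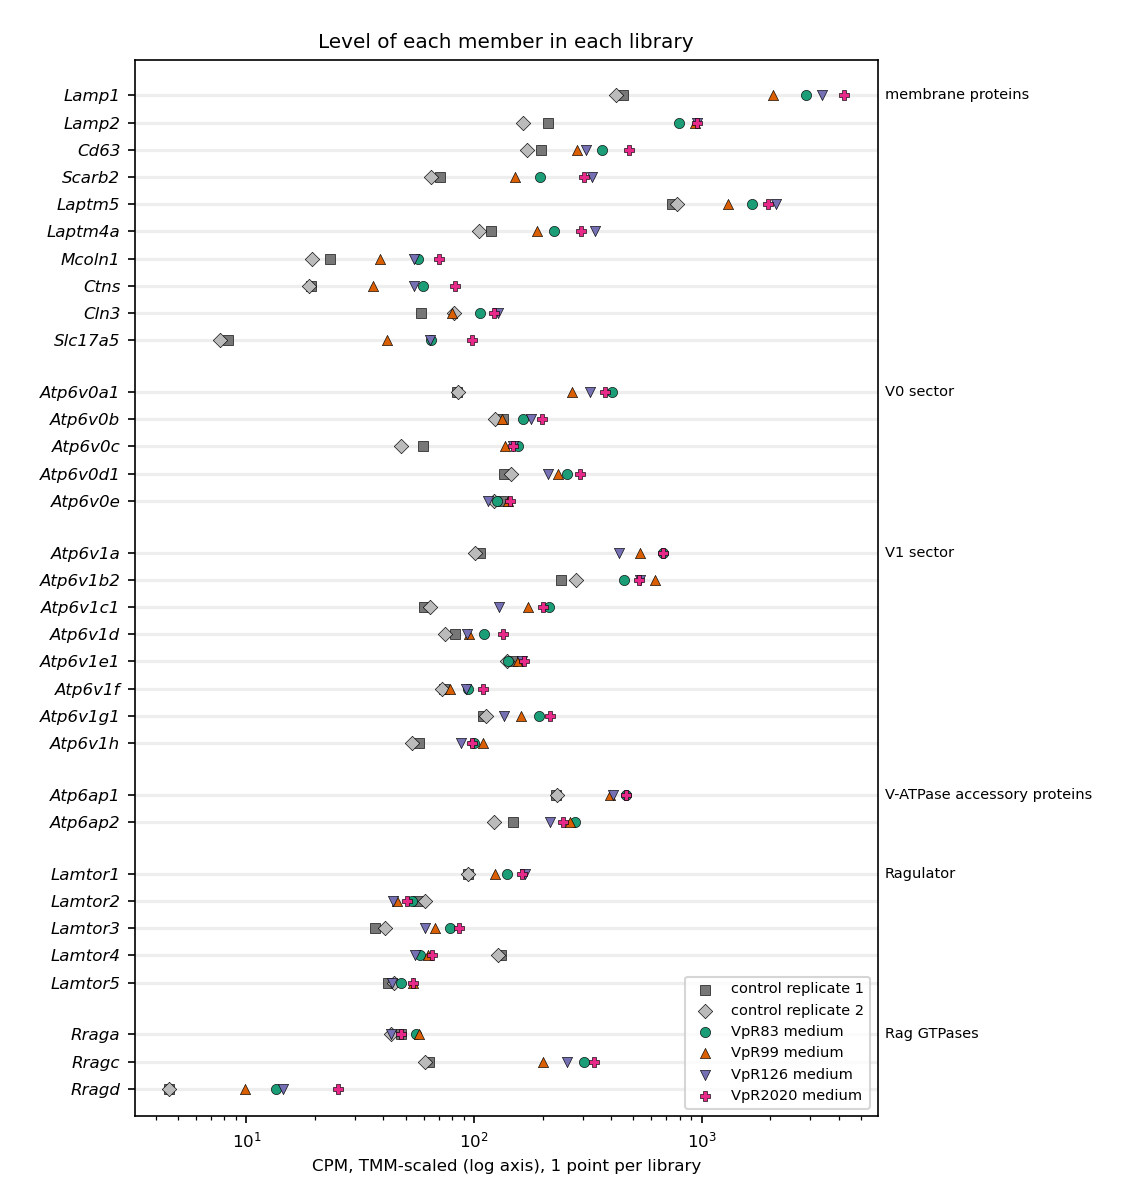
TMM-scaled CPM (log axis) of each of the 33 genes, grouped by complex, with 1 point for each of the 6 libraries. The conditioned libraries lie above both controls for 25 genes and below both for Lamtor2 and Lamtor4. Under upper-quartile scaling or with library totals alone, the fitted change of Atp6v0e, Atp6v1e1 and Rraga, near 0 here, turns negative, as does that of Lamtor5 with totals alone.

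The summed macrophage markers were higher in the same 4 libraries, and their part in the rise of the members was not tested. In bulk libraries a larger share of a cell type and more RNA per cell cannot be told apart. The calls rest on 2 controls. Without control replicate 1, 7 members were called higher (1283 of all genes tested), and without replicate 2, 8 (1299 of all genes), where the single control left is taken to vary as the other libraries do. Lamp1, Lamp2, Slc17a5, Atp6v0a1, Atp6v0c, Atp6v1a and Rragc were called higher and Lamtor4 lower under each of the 13 alternatives run (other scalings, filters and tests, a thinned VpR99, each library left out). Upper-quartile scaling and library totals moved the median over all genes tested to -0.22 and -0.26, and the members' median to 0.71 and 0.68, which is 0.94 and 0.93 above that of all genes. Under these scalings 40.0% and 38.6% of all calls were of higher genes, against 53.3% with TMM.

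**Figure D2:**
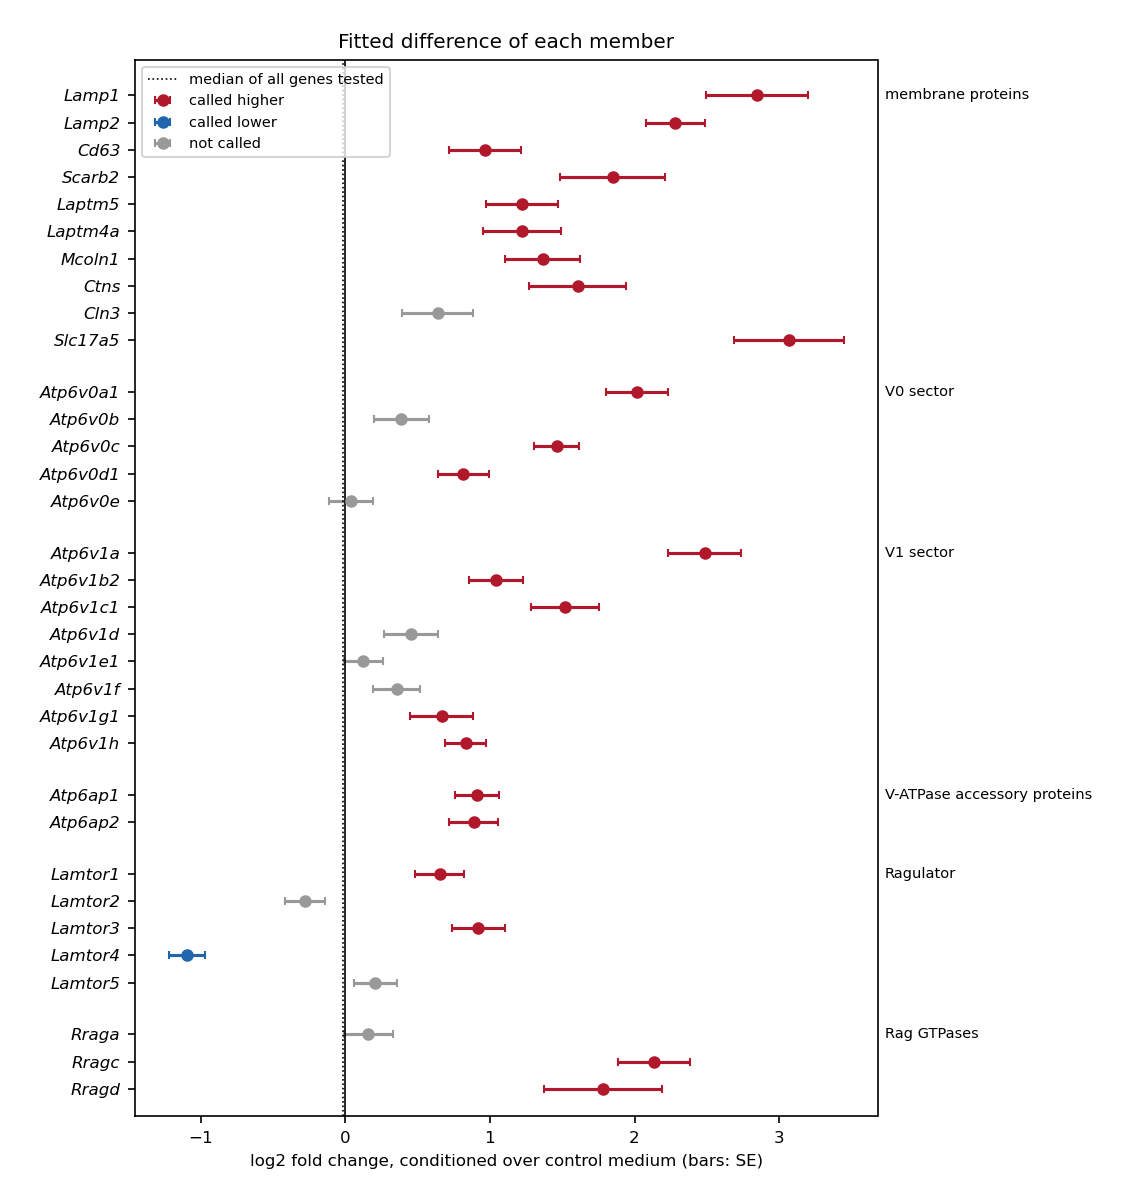
Fitted log2 fold change of each gene, conditioned over control medium, with bars of ± 1 SE; red marks genes called higher, blue called lower and grey not called, and the dotted line is the median of all genes tested. Values run from -1.09 (Lamtor4) to 3.07 (Slc17a5). Atp6v0e, Atp6v1e1 and Rraga change sign under upper-quartile and library-total scaling, and Lamtor5 under library totals.

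Of the 10 membrane proteins 9 rose and Cln3 was not called, with a median log2 fold change of 1.49. Lamp1 and Lamp2 encode the heavily glycosylated proteins that line the lysosomal lumen. Lamp1 (ENSMUSG00000031447, chromosome 8, 13159161 to 13175338, GRCm38) had 450.1 and 421 CPM in the controls and 2872 (VpR83), 2062 (VpR99), 3387 (VpR126) and 4208 CPM (VpR2020) in conditioned medium. Every conditioned library exceeded the higher control, and the log2 fold change was 2.85 ± 0.35 (edgeR adjusted p = 0.0019). Lamp1 made up 10.3% and 10.8% of the members' summed CPM in the controls and 22.3% to 31.4% in conditioned medium. Lamp2 (ENSMUSG00000016534, chromosome X, 38401357 to 38456454) had 210.4 and 163 CPM in the controls and 796 (VpR83), 934 (VpR99), 951 (VpR126) and 954 CPM (VpR2020) in conditioned medium (2.28 ± 0.20, adjusted p = 0.00086). Its conditioned libraries were close together, with VpR83 below the other 3.

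The largest fitted rise among the members was that of Slc17a5, the gene of sialin, which exports sialic acid released from digested glycoproteins. It had 8.33 and 7.66 CPM in the controls and 64.9 (VpR83), 41.5 (VpR99), 63.9 (VpR126) and 98.1 CPM (VpR2020) in conditioned medium (3.07 ± 0.38, adjusted p = 0.0020). The groups did not overlap, and the level was highest under VpR2020 medium and lowest under VpR99 medium. Ctns, the gene of the cystine exporter cystinosin, and Mcoln1, the gene of the calcium channel TRPML1, rose by 1.61 ± 0.34 and 1.36 ± 0.26 (adjusted p = 0.011 and 0.0080). Ctns had 19.3 and 18.8 CPM in the controls and 59.5 (VpR83), 35.9 (VpR99), 54.5 (VpR126) and 82.6 CPM (VpR2020) in conditioned medium. Mcoln1 had 23.3 and 19.5 CPM in the controls and 56.7 (VpR83), 38.8 (VpR99), 54.7 (VpR126) and 70.4 CPM (VpR2020) in conditioned medium. For both genes the 4 lines lay above the controls, with VpR99 lowest and VpR2020 highest. Scarb2, the gene of LIMP-2, which carries glucocerebrosidase to the lysosome, had 71.0 and 64.7 CPM in the controls and 194 (VpR83), 152 (VpR99), 328 (VpR126) and 303 CPM (VpR2020) in conditioned medium (1.85 ± 0.36, adjusted p = 0.0091). It split the lines, with VpR126 and VpR2020 above VpR83 and VpR99.

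Laptm5, a membrane protein gene of blood cells that is known for sorting antigen receptors to the lysosome, had 737 and 775 CPM in the controls and 1666 (VpR83), 1309 (VpR99), 2112 (VpR126) and 1957 CPM (VpR2020) in conditioned medium (1.22 ± 0.25, adjusted p = 0.010). Both controls lay below all 4 lines. Its widely expressed relative Laptm4a had 119 and 106 CPM in the controls and 224 (VpR83), 189 (VpR99), 339.6 (VpR126) and 295 CPM (VpR2020) in conditioned medium (1.22 ± 0.27, adjusted p = 0.013). The order of the lines was that of Laptm5, with VpR126 highest and VpR99 lowest of the lines. The tetraspanin gene Cd63, a marker of late endosomes and of exosomes, had 197 and 170.4 CPM in the controls and 365 (VpR83), 283 (VpR99), 312 (VpR126) and 478 CPM (VpR2020) in conditioned medium (0.97 ± 0.25, adjusted p = 0.022). Cln3, the gene mutated in juvenile Batten disease, had 58.4 and 81.3 CPM in the controls and 106 (VpR83), 79.7 (VpR99), 127 (VpR126) and 122 CPM (VpR2020) in conditioned medium. The groups overlapped, since control replicate 2 lay above VpR99 (log2 fold change 0.64 ± 0.24, adjusted p = 0.074); without VpR99 the gene was called higher (0.77, adjusted p = 0.025, range over alternatives 0.025 to 0.38). Cd63, Ctns, Laptm4a, Laptm5, Mcoln1 and Scarb2 missed the threshold without control replicate 1 (adjusted p = 0.056 to 0.11) and without control replicate 2 (0.074 to 0.15), where their adjusted p ranged from 7.5e-06 to 0.15 over all alternatives. The opposite-strand genes Grtp1 and Apobr cover 9.3% and 7.6% of the exon bases of Lamp1 and Cln3. The strand setting of the counting is not given in the sources used here, so reads of such pairs cannot be told apart. Cd63 and Atp6v0c have pseudogene copies, Cd63-ps and Atp6v0c-ps1, and the counting may split reads between them. No search for such copies was run over the members, so others may have them too.

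Of the 5 V0 genes 3 rose and 2 were not called (median log2 fold change 0.82). Atp6v0a1 encodes an isoform of the large a subunit, which holds the proton path and sets where the pump is sent. It had 84.5 and 85.0 CPM in the controls and 404 (VpR83), 269 (VpR99), 324 (VpR126) and 377 CPM (VpR2020) in conditioned medium (ENSMUSG00000019302, chromosome 11, 101009452 to 101063719; 2.02 ± 0.22, adjusted p = 0.0014). The controls differed little, and every conditioned library was above them. Atp6v0c, the gene of the main proteolipid of the rotor ring, had 59.6 and 47.7 CPM in the controls and 156 (VpR83), 137 (VpR99), 149 (VpR126) and 149 CPM (VpR2020) in conditioned medium (1.46 ± 0.16, adjusted p = 0.0013). The 4 lines gave nearly the same level. Atp6v0d1, which joins the ring to the central stalk, had 136 and 145 CPM in the controls and 255 (VpR83), 233 (VpR99), 212 (VpR126) and 291 CPM (VpR2020) in conditioned medium (0.82 ± 0.17, adjusted p = 0.012). The groups were apart, but the change did not pass the threshold without control replicate 1 or 2 (adjusted p = 0.11 and 0.078, range 0.00046 to 0.11).

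The other ring proteolipid, encoded by Atp6v0b, had 134 and 123 CPM in the controls and 164 (VpR83), 133 (VpR99), 178 (VpR126) and 199 CPM (VpR2020) in conditioned medium. VpR99 fell between the controls, so the groups overlapped (0.39 ± 0.19, adjusted p = 0.14); without VpR99 it was called (0.49, adjusted p = 0.043, range 0.043 to 0.54). The antisense gene Gm12841 covers 11.8% of its exon bases. Atp6v0e, the gene of the small e subunit, had 133 and 123 CPM in the controls and 126 (VpR83), 141 (VpR99), 115 (VpR126) and 144 CPM (VpR2020) in conditioned medium. The groups overlapped on both sides, and the log2 fold change of 0.040 ± 0.15 (adjusted p = 0.84) turned to -0.17 with the upper quartile as scale and to -0.20 with library totals.

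Of the 8 V1 genes 5 rose and 3 were not called (median log2 fold change 0.75). The catalytic A subunit gene Atp6v1a (ENSMUSG00000052459, chromosome 16, 44085402 to 44139705) changed the most. It had 106 and 100.5 CPM in the controls and 676 (VpR83), 536 (VpR99), 432 (VpR126) and 674 CPM (VpR2020) in conditioned medium (2.49 ± 0.25, adjusted p = 0.0012). Atp6v1b2, the gene of the B subunit that alternates with A in the head of the pump, had 241 and 281 CPM in the controls and 457 (VpR83), 624 (VpR99), 536 (VpR126) and 529 CPM (VpR2020) in conditioned medium (1.04 ± 0.19, adjusted p = 0.0066). Both groups were apart for each of the pair, with VpR126 lowest for Atp6v1a and VpR83 lowest for Atp6v1b2. Atp6v1c1, the gene of the C subunit that clamps V1 onto V0, had 60.3 and 64.3 CPM in the controls and 212 (VpR83), 173 (VpR99), 129 (VpR126) and 201 CPM (VpR2020) in conditioned medium (1.52 ± 0.24, adjusted p = 0.0041). Atp6v1h, the gene of the regulatory H subunit, had 57.4 and 53.6 CPM in the controls and 99.8 (VpR83), 109 (VpR99), 87.6 (VpR126) and 98.4 CPM (VpR2020) in conditioned medium (0.83 ± 0.14, adjusted p = 0.0056). Both were lowest among the lines under VpR126 medium, above the controls. Atp6v1g1, the G subunit gene of the outer stalks, had 109 and 113 CPM in the controls and 193 (VpR83), 161 (VpR99), 135 (VpR126) and 217 CPM (VpR2020) in conditioned medium (0.67 ± 0.22, adjusted p = 0.046).

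The remaining subunits of the stalks and the rotor were not called. Atp6v1e1, which pairs with G in the outer stalks, had 147 and 139.5 CPM in the controls and 141 (VpR83), 156 (VpR99), 162 (VpR126) and 166 CPM (VpR2020) in conditioned medium (0.13 ± 0.13, adjusted p = 0.47). VpR83 lay between the controls, and the fitted change was -0.080 under upper-quartile scaling and -0.12 under library totals. The D and F subunits form the central rotor shaft. Atp6v1d had 82.8 and 74.8 CPM in the controls and 110.3 (VpR83), 95.4 (VpR99), 92.8 (VpR126) and 133 CPM (VpR2020) in conditioned medium (0.45 ± 0.19, adjusted p = 0.094). Atp6v1f had 73.6 and 72.6 CPM in the controls and 94.3 (VpR83), 78.1 (VpR99), 91.8 (VpR126) and 109.7 CPM (VpR2020) in conditioned medium (0.35 ± 0.16, adjusted p = 0.12). For both, all conditioned libraries lay above the controls, by less than the test required. Atp6v1f was called without VpR99 (0.44, adjusted p = 0.0496, the lowest over the alternatives, and at most 0.60). Without control replicate 1 the test was not passed by Atp6v1b2, Atp6v1c1, Atp6v1g1 and Atp6v1h (adjusted p = 0.051 to 0.22), nor without replicate 2 by Atp6v1b2, Atp6v1g1 and Atp6v1h (0.050 to 0.18, range over alternatives 2.6e-07 to 0.22). Atp6v1g1 also missed it without VpR83, VpR99 or VpR2020 and with 3 other scalings, namely RLE, upper quartile and library totals (adjusted p = 0.095, 0.051, 0.076, 0.054, 0.13 and 0.16).

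Both accessory genes rose by a like amount. Atp6ap1 encodes Ac45, which helps assemble V0, and had 229.6 and 231 CPM in the controls and 466 (VpR83), 396 (VpR99), 407 (VpR126) and 464 CPM (VpR2020) in conditioned medium (0.91 ± 0.15, adjusted p = 0.0055). Atp6ap2, the gene of the prorenin receptor, had 148 and 123 CPM in the controls and 277 (VpR83), 265 (VpR99), 216 (VpR126) and 245 CPM (VpR2020) in conditioned medium (0.89 ± 0.17, adjusted p = 0.0084). The groups were apart for both genes, but neither passed the threshold without control replicate 1 (adjusted p = 0.051 to 0.066) or without replicate 2 (0.059 to 0.087, range 5.7e-07 to 0.087).

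Several V-ATPase subunits exist as isoforms from separate genes, and 10 such genes outside the members were looked at. Of these, Atp6v0a4, Atp6v0e2, Atp6v1b1, Atp6v1c2, Atp6v1e2 and Atp6v1g3 had too few counts to test, Tcirg1, Atp6v0d2 and Atp6v0a2 were called higher, and Atp6v1g2 was not called (0.42 ± 0.49, adjusted p = 0.51). The 3 called make up 75% of the 4 tested, against 22.5% of all genes tested. Atp6v0d2, the d subunit isoform known from osteoclasts and macrophages, had 0.567 and 0.846 CPM in the controls and 14.8 (VpR83), 69.3 (VpR99), 128 (VpR126) and 70.6 CPM (VpR2020) in conditioned medium (6.66 ± 1.06, adjusted p = 0.0045). All conditioned libraries were above the controls, with VpR83 well below the other 3. Without control replicate 1 the adjusted p was 0.052 (range 7.1e-18 to 0.052). Per length, Atp6v0d2 made up 0.267% and 0.373% of the d subunit transcripts in the controls and 3.60%, 16%, 27.9% and 13.5% under VpR83, VpR99, VpR126 and VpR2020 medium. Most macrophage markers were also higher in conditioned medium, as given above, as was 1 of 5 tested osteoclast markers. Between the lines, Atp6v0d2 and the summed macrophage markers were both highest in VpR126 and next in VpR2020 (markers 16479.8 and 12844 CPM). The lowest line differed: VpR83 for Atp6v0d2, and VpR99 for the macrophage markers (6697 CPM, against 10340 CPM in VpR83). The part of these markers' cells in the rise of Atp6v0d2 was not tested.

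Among a subunits the main isoforms had like shares in both groups. Tcirg1, the gene of the a3 isoform, rose from 175 ± 8.39 to 636 ± 132 CPM (SD; n = 2 and 4 libraries; 1.86 ± 0.24, adjusted p = 0.0023). Its share of the a1, a2 and a3 transcripts per length was 66.8% and 68.6% in the controls and 65.1% to 74.2% in conditioned medium, and that of Atp6v0a1 was 24.2% and 25.4% against 22.4% to 31.9%, so both overlapped between the groups. The share of Atp6v0a2 was lower in every conditioned library (2.71% to 4.48%, against 7.20% and 7.84%), although its own level rose by 0.67 ± 0.19, adjusted p = 0.031. That call was lost without either control, without VpR83 and under upper-quartile or library-total scaling (adjusted p = 0.17, 0.14, 0.053, 0.082 and 0.11, range 0.0093 to 0.17).

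The subunits of Ragulator moved in opposite directions. Of its 5 genes Lamtor1 and Lamtor3 rose, Lamtor4 fell, and Lamtor2 and Lamtor5 were not called (median log2 fold change 0.21, but -0.035 with library totals). Rises were 40% of the list, against 22.5% of all genes tested, and the 1 of 5 that fell stands against 19.7%. Every conditioned library lay below both controls for 2 of the 5, against 33.3% of all genes. With 5 genes, such shares do not set the complex apart from all genes. Lamtor4 and Lamtor5 form one of the pairs of small subunits held by Lamtor1. Lamtor4 (ENSMUSG00000050552, chromosome 5, 138255482 to 138259398) had 131 and 127 CPM in the controls and 57.9 (VpR83), 63.0 (VpR99), 55.2 (VpR126) and 65.4 CPM (VpR2020) in conditioned medium. Every conditioned library lay under both controls, and the 4 lines were close to each other (-1.09 ± 0.13, adjusted p = 0.0016). Its partner Lamtor5 had 41.9 and 44.4 CPM in the controls and 47.7 (VpR83), 54.0 (VpR99), 43.7 (VpR126) and 53.8 CPM (VpR2020) in conditioned medium (0.21 ± 0.15, adjusted p = 0.29), with overlapping groups, and a fitted change of -0.035 with library totals. GENCODE M21 has no other gene over the exons of Lamtor4.

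Lamtor1 anchors the complex in the membrane by its lipid tail and had 93.8 and 94.5 CPM in the controls and 139 (VpR83), 124 (VpR99), 167 (VpR126) and 162 CPM (VpR2020) in conditioned medium (0.65 ± 0.17, adjusted p = 0.022). The opposite-strand gene Lrrc51 covers 18.7% of its exon bases. Lamtor2 and Lamtor3 form the other pair. Lamtor3 had 36.7 and 40.5 CPM in the controls and 78.4 (VpR83), 67.6 (VpR99), 60.7 (VpR126) and 85.5 CPM (VpR2020) in conditioned medium (0.92 ± 0.18, adjusted p = 0.0090). Lamtor2 had 56.6 and 60.7 CPM in the controls and 53.1 (VpR83), 45.9 (VpR99), 44.0 (VpR126) and 50.8 CPM (VpR2020) in conditioned medium, with every conditioned library under both controls, but a log2 fold change of -0.28 ± 0.14 that was not called (adjusted p = 0.15). Lamtor2 was called lower when scaled by the upper quartile or by library totals (-0.48 and -0.52, adjusted p = 0.033 and 0.031, range 0.031 to 0.49), each 0.26 below the median of all genes under that scaling. Lamtor1 was not called under these scalings (0.080 and 0.077). Lamtor1 and Lamtor3 missed the threshold without control replicate 1 (adjusted p = 0.090 to 0.14) and without replicate 2 (0.060 to 0.12, range 0.00028 to 0.14).

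Of the 3 Rag GTPase genes Rragc and Rragd rose and Rraga was not called. A working Rag pair holds RagA or RagB with RagC or RagD. Rragc (ENSMUSG00000028646, chromosome 4, 123917446 to 123936997) had 63.6 and 61.1 CPM in the controls and 303 (VpR83), 201 (VpR99), 255 (VpR126) and 335 CPM (VpR2020) in conditioned medium (2.13 ± 0.25, adjusted p = 0.0016). Rragd had 4.57 and 4.56 CPM in the controls and 13.4 (VpR83), 9.87 (VpR99), 14.4 (VpR126) and 25.2 CPM (VpR2020) in conditioned medium (1.78 ± 0.41, adjusted p = 0.015), with VpR2020 highest, and missed the threshold without control replicate 1 or 2 (adjusted p = 0.11 and 0.098, range 0.00021 to 0.11). Rraga had 47.9 and 43.4 CPM in the controls and 55.8 (VpR83), 57.4 (VpR99), 43.0 (VpR126) and 47.8 CPM (VpR2020) in conditioned medium. Its groups overlapped, with VpR126 below both controls (0.16 ± 0.17, adjusted p = 0.46, and -0.048 and -0.077 under upper-quartile and library-total scaling). Rragb, its alternative, was low and fell, from 2.37 and 2.26 CPM to between 0.111 and 0.659 CPM (-2.39 ± 0.55, adjusted p = 0.015; without control replicate 1 or 2, adjusted p = 0.093 and 0.083, range 0.00047 to 0.093). The gene 4930535I16Rik on the opposite strand covers 7.9% of the exon bases of Rragc.

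Ratios of transcripts within a library do not depend on the scaling between libraries, and they show the unequal movement directly. The ratio of Rragc to Rraga, each per kilobase of transcript, was 0.828 and 0.879 in the controls and 3.38, 2.18, 3.70 and 4.37 under VpR83, VpR99, VpR126 and VpR2020 medium. The ratio of Lamtor4 to Lamtor5 was 3.14 and 2.88 in the controls and 1.22, 1.17, 1.27 and 1.22 under VpR83, VpR99, VpR126 and VpR2020 medium. It was nearly the same in the 4 lines and lower in each than in either control. That of Lamtor4 to Lamtor1 was 1.72 and 1.78 in the controls and 0.421 to 0.648 in conditioned medium. In the V-ATPase, the ratio of Atp6v1a to Atp6v1e1 was 0.225 and 0.223 in the controls and 1.49, 1.06, 0.828 and 1.26 under VpR83, VpR99, VpR126 and VpR2020 medium. The ratio of Atp6v0a1 to Atp6v0e was 0.445 and 0.487 in the controls and 1.34 to 2.25 in conditioned medium. The ratio of Lamp1 to Lamp2 overlapped between the groups through VpR99 alone (3.57, against 3.46 and 4.17 in the controls). It was 5.83, 5.76 and 7.13 under VpR83, VpR126 and VpR2020 medium, above both controls. These pairs were chosen after their values were seen, and no test was run on the ratios.

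**Figure D3:**
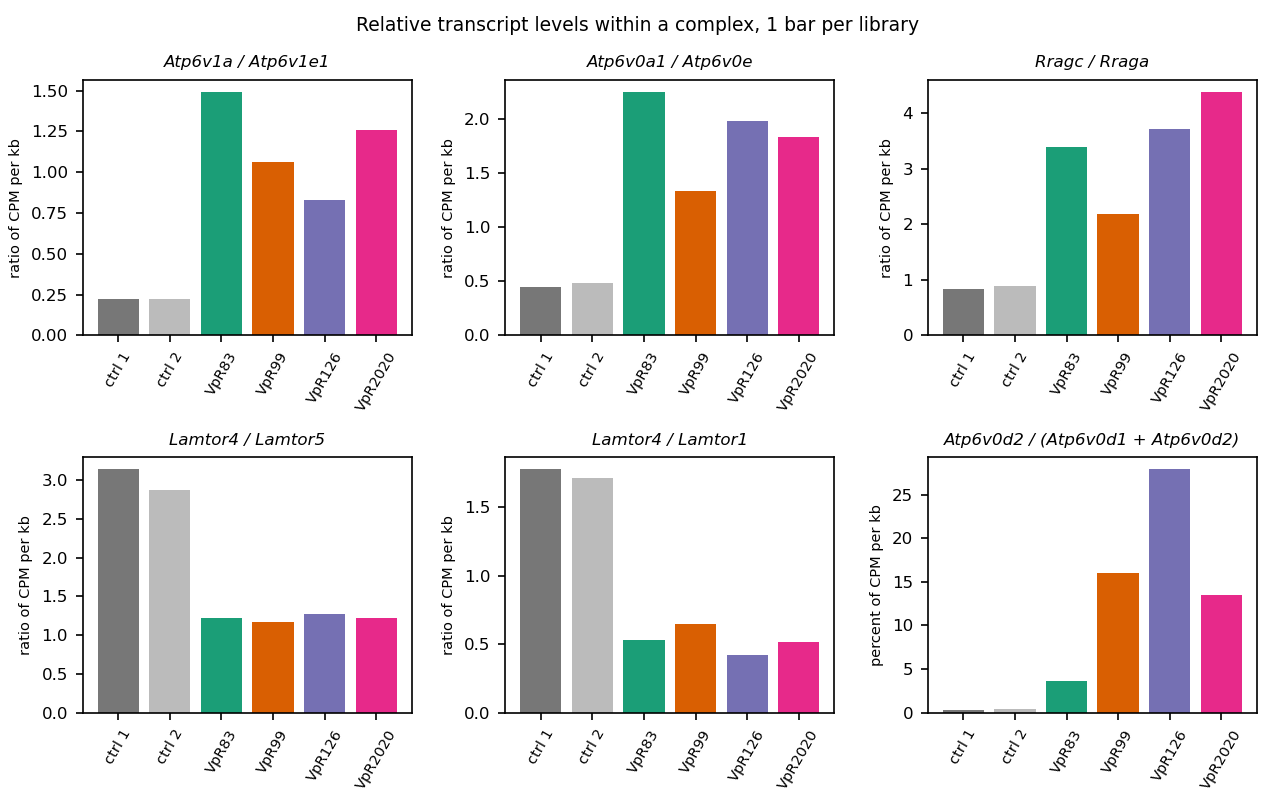
Ratios of transcript levels (CPM per kilobase) for 5 gene pairs, and the share of Atp6v0d2 among d subunit transcripts in percent, with 1 bar for each library. For Atp6v1a, Atp6v0a1 and Rragc the 4 conditioned bars stand above both controls, for Lamtor4 below both, and the share of Atp6v0d2 runs from 3.60% to 27.9% in conditioned medium.

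Per kilobase of transcript, Laptm5 was the most abundant member in control medium (291 ± 10.5 CPM per kilobase, SD, n = 2), followed by Lamp1 (195 ± 9.21) and Cd63 (166 ± 16.8). In conditioned medium Lamp1 came first (1405 ± 404, n = 4), before Laptm5 (677 ± 136), Cd63 (324 ± 77.8) and Lamp2 (252 ± 21). The ranges over libraries of Cd63 (255 to 431) and Lamp2 (221 to 265) overlapped. Rragd was the least abundant in both groups (0.911 and 3.14 CPM per kilobase). These levels use the length of the principal transcript in GENCODE M21. With all exon bases of a gene as its length, Laptm5 and Lamp1 were again the first and the next in control medium, and Lamp1 and Laptm5 in conditioned medium, with Rragd last in both. The ranks between depend on the length used: Cd63 then ranked 11 in control and 8 in conditioned medium, and Lamp2 11 in conditioned medium.

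The 4 conditioned libraries differed in how far the members rose, with 1 library for each medium and therefore no test between lines. The median log2 difference of the 33 genes from the control mean was 1.0 under VpR83, 0.79 under VpR99, 0.83 under VpR126 and 1.05 under VpR2020 medium. Between the controls, the members' median log2 difference (replicate 2 minus 1) was -0.059. The order of these medians depended on the scaling: with library totals alone VpR126 lay below VpR99, and VpR83 above VpR2020. VpR2020 gave the highest value of the 4 for 17 members and the lowest for 0. VpR99 gave the lowest for 17 and VpR126 for 13. Under the other 3 scalings VpR2020 was highest for 15 to 20 members and VpR99 lowest for 16 to 18. For 9 of the 10 membrane proteins VpR99 was lowest, under every scaling run.

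The order of the lines was not the same for each complex. Under VpR126 medium the membrane proteins had a median of 1.56 and the V1 genes one of 0.49, the lowest V1 median of the lines. Under VpR99 medium these medians were 0.89 and 0.76, under VpR83 1.47 and 0.80, and under VpR2020 1.92 and 0.90. Scarb2 and Laptm4a had their highest level in VpR126, where Atp6v1a, Atp6v1c1, Atp6v1g1 and Atp6v1h had their lowest among the lines. The fall of Lamtor4 was nearly uniform, from -1.22 (VpR126) to -0.98 (VpR2020). The summed macrophage markers were also lowest in VpR99 (6697 CPM) but highest in VpR126 (16479.8 CPM), and the neutrophil markers were highest in VpR99 (18027 CPM). Their part in the differences between lines was not tested.

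**Figure D4:**
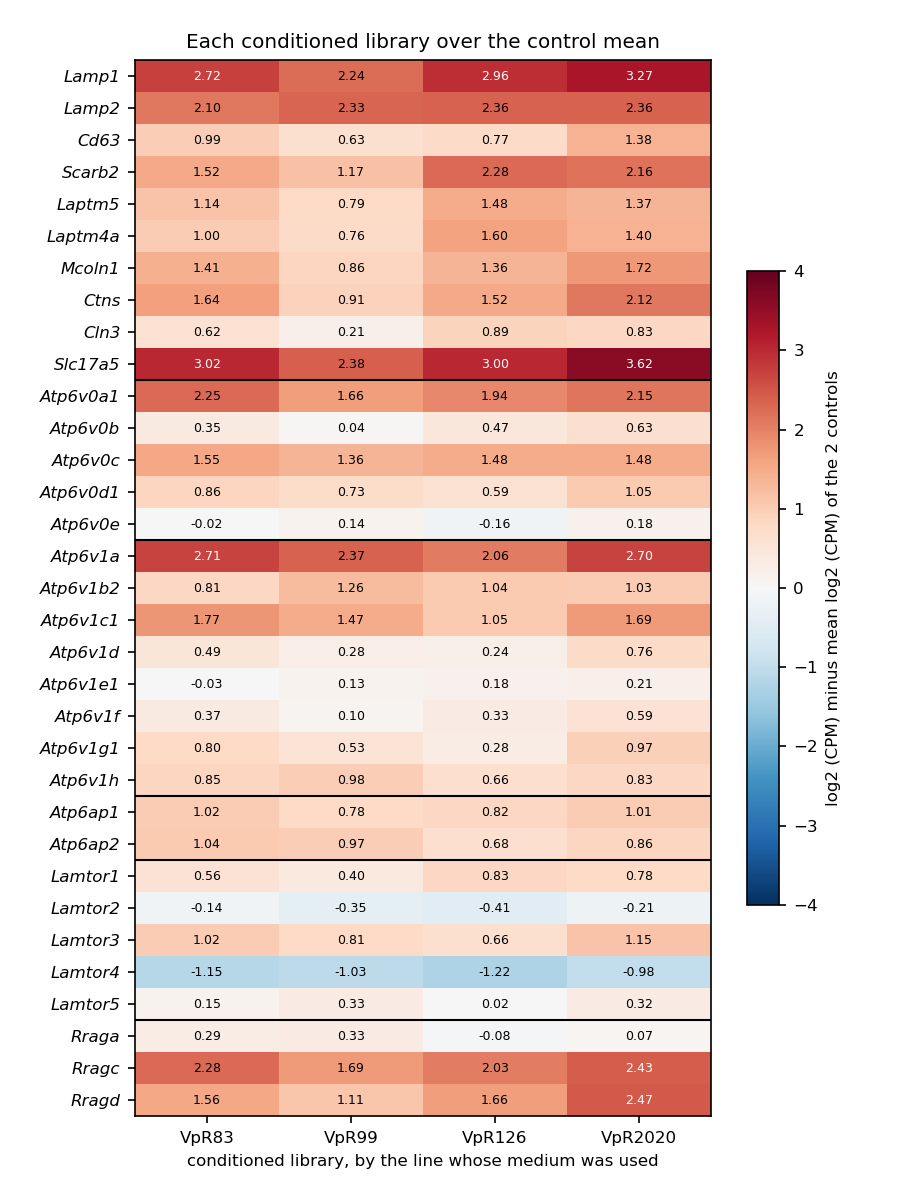
Log2 CPM of each conditioned library minus the mean log2 CPM of the 2 controls, for the 33 genes (rows, complexes separated by lines) and the 4 media (columns). Red is higher and blue lower than control. Slc17a5 reaches 3.62 under VpR2020 medium, and Lamtor4 is lower than control in each column. With another scaling 12 of these values change sign, in 8 genes (Atp6v0b, Atp6v0e, Atp6v1d, Atp6v1e1, Atp6v1f, Cln3, Lamtor5 and Rraga).

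Other genes of the same membrane and of the pathway were read from the same fit. Of 24 further lysosomal membrane transporters, channels and glycoproteins 19 rose, Abcb9 fell and 4 were not called, with a median log2 fold change of 1.47. The rises make up 79.2% of the list, against 22.5% of all genes tested. The largest changes were those of Cd68, a glycoprotein gene of the LAMP family that is also on the macrophage marker list (3.84 ± 0.32), Slc38a7, which exports glutamine and asparagine (3.46 ± 0.37), and Npc1, which moves cholesterol out of the lysosome (3.44 ± 0.30). Each was called under all alternatives (adjusted p at most 0.025). The peptide transporter gene Abcb9 fell from 8.22 ± 0.862 to 2.66 ± 1.48 CPM (-1.64 ± 0.51, adjusted p = 0.041). It missed the threshold without control replicate 1 or 2, VpR83 or VpR2020 (adjusted p = 0.18, 0.14, 0.083 and 0.079, range 0.0088 to 0.18).

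Of 8 genes for V-ATPase assembly 5 rose, Rogdi and Tmem9 fell, and Ccdc115 was not called (median 0.80), the rises being 62.5% of the list against 22.5% of all genes tested. Dmxl1, Wdr7 and Dmxl2 encode the large proteins that bring V1 and V0 together and rose by 2.17 ± 0.24, 1.97 ± 0.27 and 1.61 ± 0.27. Their small partner gene Rogdi fell by 1.54 ± 0.24 (adjusted p = 0.0043), from 73.8 ± 0.757 to 25.3 ± 6.67 CPM. The call of Dmxl2 was lost without control replicate 2 (adjusted p = 0.058, range 1.4e-06 to 0.058), and that of Tmem9 (log2 fold change -0.96 ± 0.22) without control replicate 1 or 2 (adjusted p = 0.10 and 0.088, range 0.0016 to 0.10).

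The mTORC1 genes and their nutrient regulators were mixed. Rises were called for 11 of the 26 genes and falls for 4, while 11 did not pass the test (median 0.40). The rises make up 42.3% of the list, against 22.5% of all genes tested, and the 4 of 26 that fell stand against 19.7% of all genes. Fnip2, a partner of folliculin in the complex that acts on RagC and RagD, rose from 22.3 ± 1.07 to 349 ± 111 CPM (3.96 ± 0.39, adjusted p = 0.0011), and its paralogue Fnip1 rose by 1.76 ± 0.21. The arginine sensor gene family member Castor2 rose by 2.90 ± 0.18. Besides Rragb, Mlst8, a core subunit of the mTOR complexes, and the regulators Nprl3 and Kptn fell (log2 fold changes of -1.29 ± 0.18, -0.68 ± 0.19 and -0.67 ± 0.22). Mlst8 was called under all alternatives, and Nprl3 and Kptn were not called without either control (adjusted p = 0.18 to 0.20 and 0.098 to 0.23), without VpR83 or VpR2020 (0.069 to 0.094 and 0.055 to 0.078) or without a low-count filter (0.069 to 0.14, range 0.0068 to 0.23). Kptn was also lost without VpR126 or by voom (adjusted p = 0.058 and 0.055).

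Of 10 genes of BORC, the complex that couples lysosomes to motor proteins, and of its GTPases, Arl8b, Arl8a and Snapin rose, Borcs5 and Bloc1s2 fell and 5 were not called (median 0.23). These shares of the list, 3 and 2 of 10, are near the 22.5% called higher and 19.7% called lower among all genes tested. Arl8b and Arl8a encode the GTPases and rose by 1.74 ± 0.22 and 1.21 ± 0.14, under all alternatives. Borcs5 and Bloc1s2 changed by -1.12 ± 0.28 and -0.87 ± 0.19 and were not called without control replicate 1 (adjusted p = 0.090 to 0.14) or 2 (0.075 to 0.095, range 0.00049 to 0.14). Snapin (0.90 ± 0.24) was not called without control replicate 1 or 2 or under upper-quartile or library-total scaling (adjusted p = 0.15, 0.12, 0.064 and 0.058, range 0.0071 to 0.15). The called genes named here beyond the 3 of largest change in each list were chosen after their values were seen.

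**Figure D5:**
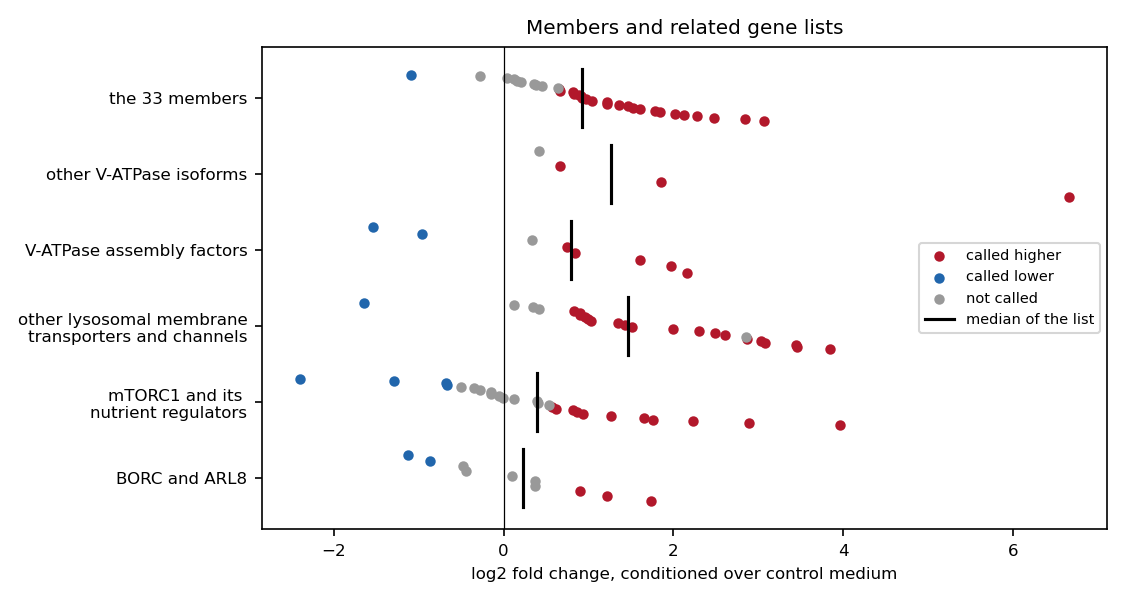
Log2 fold changes of the 33 members and of the tested genes of 5 related lists, 1 point per gene, coloured by call (red higher, blue lower, grey not called), with the median of each list as a black bar. The medians lie between 0.23 (BORC and ARL8) and 1.47 (other membrane transporters and channels). Single points reach 6.66 (Atp6v0d2) and -2.39 (Rragb). Under upper-quartile or library-total scaling the grey points of Atp6v0e, Atp6v1e1, Rraga, Borcs8, Sesn3 and Slc38a9 turn negative, and under library totals also that of Lamtor5.

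Promoters were read for the letters of the CLEAR element, which is known as the binding sequence of the MiT/TFE transcription factors at lysosomal genes. RefSeq promoter windows (GRCm38.p6, 250 bases before to 50 after the start) were found for 28 of the 33 members. Atp6v1b2, Atp6v1c1, Atp6v1g1, Atp6v1h and Lamtor3 had none. The core CACGTG, which reads the same on both strands, was present in 10 of the 28 genes (35.7%), where 8.09% of all genes with a window held it. The longer TCACGTGA, which contains the core and also reads the same on both strands, was present in 5 (17.9%), against 1.13%. The stretches below, 5′ to 3′ on the strand of the gene, hold the cores before the RefSeq start in 6 members, with the cores in capitals. They are shown because the set holds genes that rose, a gene that was not called and the gene that fell.
Lamp1: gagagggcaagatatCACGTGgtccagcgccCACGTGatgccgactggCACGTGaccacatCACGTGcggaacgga
Atp6v0b: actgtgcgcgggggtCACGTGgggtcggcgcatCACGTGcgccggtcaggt
Atp6v1a: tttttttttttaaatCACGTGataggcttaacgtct
Lamtor1: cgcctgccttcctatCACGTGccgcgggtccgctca
Lamtor4: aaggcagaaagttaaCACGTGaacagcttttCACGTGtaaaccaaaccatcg
Rragc: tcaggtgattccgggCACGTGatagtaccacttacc

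The Lamp1 stretch (chr8:13159085-13159160, plus strand) held 4 cores within 76 bases. Those of Atp6v1a (chr16:44139370-44139405, minus), Rragc (chr4:123917306-123917341, plus) and Lamtor1 (chr7:101905754-101905789, plus) held 1 each. These 4 genes were called higher. Atp6v0b (chr4:117887330-117887380, minus) held 2 cores and was not called, and Lamtor4 (chr5:138255347-138255398, plus) held 2 and fell. Mcoln1, called higher, and Cln3, not called, held 2 cores each before the RefSeq start, in stretches that GENCODE M21 places partly or wholly in an exon and that are not printed. GENCODE also starts Atp6v1a further upstream, so its stretch lies in an intron there, and 4 bases of the Atp6v0b stretch lie in an exon. In Atp6v0d1 and Atp6v0e the core lay across or after the RefSeq start. Among members with a window the core was present in 6 of 18 called higher and in 3 of 9 not called. TCACGTGA was present in 3 of the 18 and in 2 of the 9. A match describes these letters and does not show binding.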

How the data were processed

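The labels' protocols describe a stranded Illumina TruSeq kit. Per the submitters' processing notes, Trimmomatic 0.38, STAR 2.5.2b and GRCm38 were used. How reads were assigned to genes (program, strand, annotation) is not given in the sources used here. A single table by the authors holds whole, unnormalized counts with an Ensembl identifier per row, and its 6 columns were matched to samples through their names. GENCODE M21 (GRCm38) gave symbols, coordinates and transcript lengths for 45143 of 45706 rows. A zero count allows up to 3 counts, or 0.0232 to 0.161 CPM by depth, for counting error only.

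The analysis ran edgeR 4.0.16 under R 4.3.3: filterByExpr at its defaults (15141 genes kept), TMM scaling, and the robust quasi-likelihood test of conditioned (n = 4) against control libraries (n = 2), two-sided. Adjusted p-values follow Benjamini and Hochberg over the genes kept, with a threshold of 0.05. All adjusted p-values are from this test unless another is named. The SE was taken from the fold change and its F statistic (|log2 fold change| / √F). Line differences use log2 CPM with no prior count. Alternatives were RLE, upper-quartile and library-total scaling, no low-count filter, DESeq2 1.42.0, limma 3.58.1 voom, VpR99 thinned to the median depth of the others, and each library left out. The members, the lists and the tests were chosen with earlier results of these data known. Named genes are all members and the 3 called genes of largest absolute change in each related list; others were named after their values were seen. The symbol Samtor of the mTORC1 list matched no row. A planned search of protein tails for sorting motifs was not run.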

Additional observations from a re-analysis of the deposited data

Results flagged for a closer look

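Among the 4 conditioned libraries, the total count of VpR99 (129120559) stood apart from the other 3, the gap to the nearest being a larger part of the range than Dixon's critical value of 0.829. Thinned to the median total of the other libraries, it gave the same numbers of members called (23 higher, 1 lower). The level of Lamp2 under VpR83 medium (796 CPM) lay apart by the same measure from the other 3 lines, which were between 934 and 954 CPM, and without VpR83 the log2 fold change of Lamp2 was 2.34 (edgeR adjusted p = 0.0027, range over alternatives 4.3e-30 to 0.018). The 33 members were looked at in this way, and chance alone marks about 1 group in 20.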

How the results depend on the processing

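With each library left out in turn, the number of members called higher ranged from 7 to 25 and that called lower was 1 throughout, against 23 and 1 with all libraries. The lowest counts came from leaving out a control. The genes called among all tested ranged from 1283 to 3657 (higher) and 918 to 3374 (lower), and those among the further pathway genes from 22 to 43 (higher) and 2 to 9 (lower). Of the 24 members called, 8 were called under all 13 alternatives and 16 missed the threshold under at least 1. Of the 9 not called, 5 were called under none and Cln3, Atp6v0b, Atp6v1f and Lamtor2 under at least 1. Under upper-quartile and library-total scaling 2 members were called lower (Lamtor2 joining Lamtor4) and 21 higher. The median rise of the members was then 0.80 and 0.80 under VpR83 medium, 0.55 and 0.57 under VpR99, 0.63 and 0.55 under VpR126, and 0.88 and 0.79 under VpR2020, since these scalings lower all genes together. In the same order of scalings the sign turned for Atp6v0e (-0.17 and -0.20), Atp6v1e1 (-0.080 and -0.12) and Rraga (-0.048 and -0.077), and with library totals for Lamtor5 and the Ragulator median (both -0.035). Among uncalled related genes it turned, in that order, for Borcs8 (-0.11 and -0.15), Sesn3 (-0.075 and -0.11) and Slc38a9 (-0.083 and -0.13), and for Wdr24 without the low-count filter (0.043). With single libraries left out, the change of Atp6v0e ranged from -0.00061 (without control replicate 2) to 0.11, that of Sesn3 from -0.14 to 0.48, of Slc38a9 from -0.080 to 0.27, of Seh1l from -0.080 to 0.0022 and of Wdr24 from -0.11 to 0.12. DESeq2, voom, no filter and thinning of VpR99 each left 23 members called higher and 1 lower. No paired analysis was possible because no label links a control library to a conditioned one. With 2 controls, a difference smaller than the spread between libraries cannot be shown.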
